A study of Mus musculus with 87 samples.

Results

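The 7 genes of cytoskeletal intermediate filaments were followed across 64 RNA-seq libraries of mouse embryos: Prph, Nefl, Nefm, Nefh, Ina, Nes and Vim. They are 7 of the 43346 Ensembl genes in each deposited table, taken by their Ensembl gene ID. Prph was picked for its lower level in the B8 neural tube and Nefm and Nefl for their higher level in the B7 face, so the values of those 2 comparisons are given below as a description, with no test. The other 4 genes complete the families.

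The study removed single boundaries between topologically associating domains, the stretches of chromosome within which genes and enhancers contact each other, from the genome of FVB mice by CRISPR/Cas9. RNA was taken at embryonic day 11.5 from embryos homozygous for a deletion and from wild-type littermates, and all libraries are of the FVB strain. Each of the 7 lines (B2 to B8) carries 1 deletion, so a difference seen in a line cannot be told apart from any other feature of that line. Hearts of B2 (4 homozygous, 4 wild-type) and lungs of B2 (6 and 6) were sequenced, with faces and hearts of B3 and B5, gut and midbrain of B4, faces of B6 and B7, and forebrain and neural tube of B8 at 2 libraries of each genotype. The homozygous hearts of B6 and B7 (2 each) have no labelled wild-type hearts of their own line and were set against 8 wild-type hearts from 3 other lines (B2, B3, B5). In all there were 30 wild-type and 34 homozygous libraries in 26 groups. None of the 7 genes lies in a deleted interval, so they do not check the deletions. Ina lies 21.38 Mb from the B8 deletion and Nes 39.99 Mb from the B7 deletion, and no other gene of the set shares a chromosome with one of the 7 deletions.

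Intermediate filaments are rope-like polymers of rod-shaped proteins. Dividing neural progenitors hold nestin and vimentin, and neurons exchange these for the neurofilament triplet and alpha-internexin as they leave the cell cycle and grow axons. Peripherin joins these filaments mainly in neurons that send axons outside the central nervous system, such as sensory, motor and autonomic neurons.

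On the mm10 build, Prph lies on chromosome 15 from 99055174 to 99058978 on the plus strand, Ina on chromosome 19 from 47014698 to 47025327 (plus), Nes on chromosome 3 from 87971078 to 87980451 (plus) and Vim on chromosome 2 from 13573927 to 13582826 (plus). Nefh lies on chromosome 11 from 4938754 to 4948064 (minus). Nefl (chromosome 14, 68083863 to 68089095, plus) and Nefm (chromosome 14, 68082590 to 68124846, minus) overlap. One of the 2 annotated Nefm transcripts, ENSMUST00000111089, shares 1108 of its exon bases with Nefl, which is 32.8% of the 3380 exon bases of Nefl, on the opposite strand. The other Nefm transcript shares 0 bases. Whether strand was used in counting is not given in the sources used here, so reads in the shared bases cannot be told apart between the genes.

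The 250 bases before the RefSeq gene start (GRCm38.p6) are shown for Prph, the gene that was lower in the B8 neural tube, and for a neuronal and a progenitor gene to set beside it. They were read from a table that holds 4 of the 7 genes. Of these 4, Vim is not printed, and Nefl, Nefm and Nefh have no entry. Capitals mark TATAAA in Prph and CAGCTG in Ina.
Prph, chr15:99054924-99055173, plus strand: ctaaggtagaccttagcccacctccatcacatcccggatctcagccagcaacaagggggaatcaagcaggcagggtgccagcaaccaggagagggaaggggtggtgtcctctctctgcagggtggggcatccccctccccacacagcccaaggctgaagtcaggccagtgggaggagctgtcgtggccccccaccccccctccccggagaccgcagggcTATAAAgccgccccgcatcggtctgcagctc
Ina, chr19:47014431-47014680, plus strand: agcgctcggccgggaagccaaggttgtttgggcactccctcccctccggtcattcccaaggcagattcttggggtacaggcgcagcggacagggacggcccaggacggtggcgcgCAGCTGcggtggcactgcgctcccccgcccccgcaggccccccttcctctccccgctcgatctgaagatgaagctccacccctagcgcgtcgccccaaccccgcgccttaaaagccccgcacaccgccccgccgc
Nes, chr3:87970843-87971092, plus strand: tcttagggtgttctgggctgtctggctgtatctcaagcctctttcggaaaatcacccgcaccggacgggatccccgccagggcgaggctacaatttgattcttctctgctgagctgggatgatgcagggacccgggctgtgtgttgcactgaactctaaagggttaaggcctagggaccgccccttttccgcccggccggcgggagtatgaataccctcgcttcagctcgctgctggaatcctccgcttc

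TATAAA was searched on both strands in the same 250 bases of 32851 promoters and was found in 12.4% of them. Prph holds it with its first base 31 bases before the gene start and Vim 32 bases before it, and Ina and Nes do not hold it. CANNTG, the E-box that proneural basic helix-loop-helix proteins can bind, was found in 66.2% of promoters and in Ina alone among the 4 genes, 135 bases before the start. That copy reads CAGCTG, a form of the same motif that 13% of promoters hold. GGGCGG, the letters bound by Sp1, was found in 32.7% of promoters and in Prph, Ina and Nes. CCAAT was found in 33.8% of promoters and in Vim alone of the 4. These matches describe letters and not binding.

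Total expected counts ran from 8391553 to 31793441 per library. The summed defining genes of a tissue were higher in each of its libraries than in any library of another tissue. This held for all 16 faces, 20 hearts, 12 lungs, 4 forebrains, 4 midbrains and 4 neural tubes. The 4 guts did not separate in this way: their sums ran from 173 to 255 CPM (read counts scaled to library size), other tissues reached 470 CPM, and Cdx1 was under 1 CPM in all 4. Different lists were not compared within a library, and the midbrain A39 held 225 CPM of midbrain genes and 435 CPM of forebrain genes. The homozygous B5 heart A21 and the wild-type B3 heart A16 stood apart from the other 18 hearts. The face gene sum was 307 CPM in A21 and 57.5 to 206 CPM in those 18, its heart gene sum was 5965 CPM against 8634 to 21273 CPM, and it held both Xist (142 CPM) and Y-linked transcripts (59.2 CPM). In A16, Sox10 of neural crest glia was 13.1 CPM, against at most 8.46 CPM in the 18. The wild-type lung E5420-09 had 90.1% of its counts in 10 genes where 10 other lungs had 22.8 to 28.6%. In the wild-type lung E5420-07 mitochondrial genes held 0.362% of counts, against 11.3 to 14.05% in those 10 lungs, and it stood apart in Nes and Vim. In these bulk samples fewer cells of a type and less RNA per cell cannot be told apart.

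Across wild-type tissues the genes fell into 3 patterns: Prph, Nefl and Nefm were highest in neural tube, Ina and Nes in midbrain, and Vim was abundant everywhere. Levels of different genes are compared here in TPM, which is scaled for transcript length. Prph had a median of 42.1 TPM in neural tube (37.9 and 46.4), 21.8 TPM in face (13.5 to 29.7, n = 8), 11.6 TPM in midbrain (9.56 and 13.6) and 2.92 TPM in gut (1.2 and 4.65). It was 0.49 TPM in heart, 0.35 TPM in lung and 0.065 TPM in forebrain, where the 2 wild-type libraries held 2 and 1 reads. The neural tubes lay above all faces, the midbrains above the guts and the lungs above both forebrains, and the other neighbours in this order overlapped.

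Nefl, which encodes the light subunit that nucleates neurofilaments, had a median of 206 TPM in neural tube (203 and 208), 129 TPM in midbrain (118 and 140), 60.0 TPM in face (46.5 to 72.1) and 17.2 TPM in gut (13.3 and 21.1). Forebrain followed at 8.05 TPM, lung at 3.00 TPM and heart at 2.88 TPM, and these last 3 overlapped in that order while the 4 above were apart from each other and from forebrain. Nefm, the medium subunit, was the most abundant of the 5 neuronal genes in neural tube at 322 TPM (312 and 332). It was 188 TPM in midbrain (170 and 205), 106 TPM in face (60.1 to 125), 41.2 TPM in gut (39.05 and 43.3) and 20.5 TPM in forebrain (14.3 and 26.7). In heart Nefm had a median of 2.125 TPM and in lung 1.76 TPM, and their ranges overlapped.

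Nefh, the heavy subunit that neurons add late as axons widen, was near the floor in every tissue. Its highest median was 1.58 TPM in neural tube and its lowest 0.105 TPM in lung, and no library reached 10 CPM. Ina, which encodes alpha-internexin, the first neurofilament protein of many central neurons, had a median of 216 TPM in midbrain (209 and 223), 119 TPM in neural tube (116 and 123), 60.6 TPM in forebrain (48.7 and 72.5) and 29.1 TPM in face (24.6 to 44.2). It was 2.28 TPM in gut, 0.22 TPM in lung and 0.14 TPM in heart, and all neighbours but lung and heart were apart.

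Nes, the progenitor filament nestin, had a median of 334 TPM in midbrain (311 and 356), 226 TPM in forebrain (212 and 240) and 129 TPM in neural tube (119 and 139). It was lower in face at 55.3 TPM, gut at 33.7 TPM, heart at 20.3 TPM and lung at 18.1 TPM, and these 4 overlapped with their neighbours. Vim, which progenitors share with mesenchyme and endothelium, had a median of 1924 TPM in midbrain, 1675 TPM in forebrain, 1209 TPM in neural tube, 1186 TPM in heart, 883 TPM in face, 617 TPM in gut and 298 TPM in lung. Neural tube, heart and face overlapped in Vim, and all other neighbours were apart in TPM. The low place of lung in Nes and Vim rests on TPM, a share of the library. Mitochondrial genes held 11.8 to 14.05% of counts in these lungs and at most 3.65% in the other tissues. In the edgeR fit given below, gut minus lung was 0.06 for Vim (adjusted p = 0.845) and -0.27 for Nes (adjusted p = 0.228). In CPM Vim was 500 to 591 in gut and 475 to 560 in lung, and median Nes was 118 in gut, 127 in heart and 141 in lung.

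**Figure D1:**
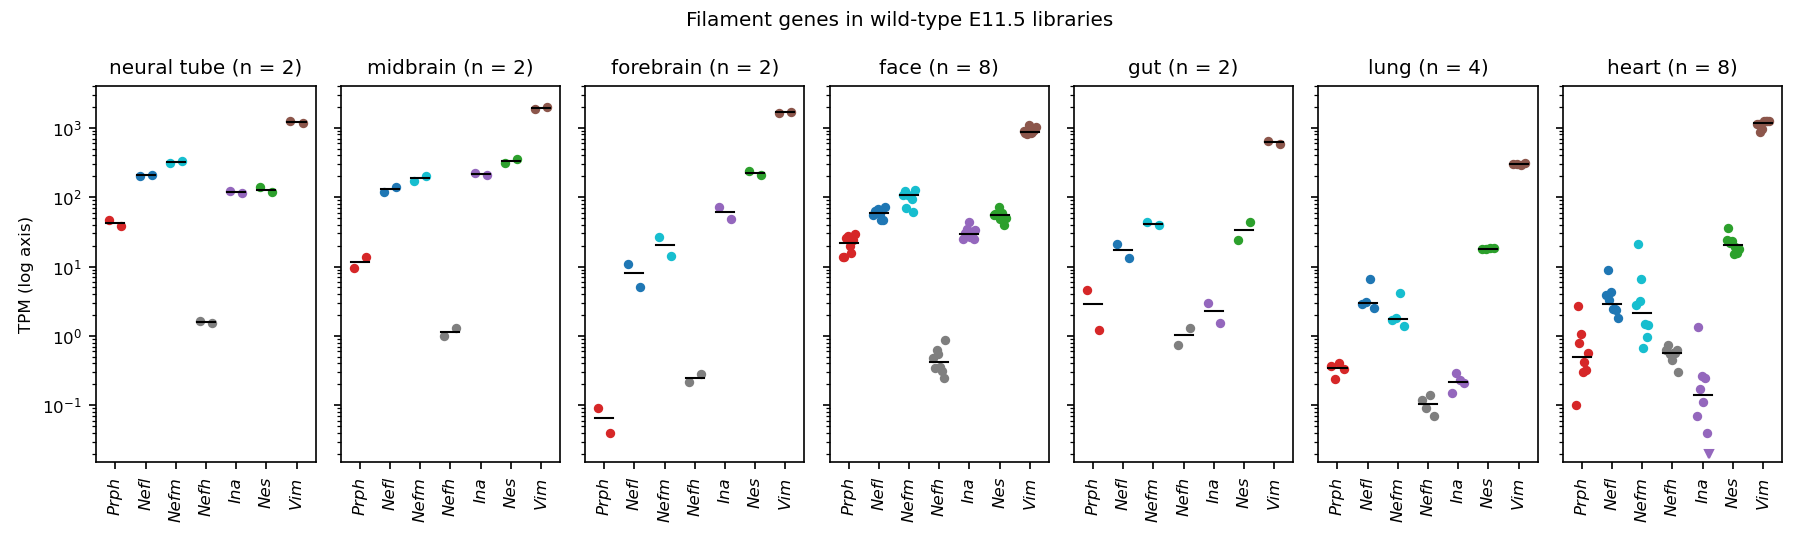
TPM on a log axis of the 7 genes in each wild-type library (points) of 7 tissues, with the median as a line and a downward triangle at the axis floor for the 1 heart with 0 Ina; 2 lungs that stood apart are left out. Neural tube holds the highest Nefm (322 TPM) and Prph (42.1 TPM), and forebrain holds Ina (60.6 TPM) with almost no Prph (0.065 TPM).

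Tissue differences were tested in the 28 wild-type libraries left without the lungs E5420-07 and E5420-09, with edgeR's quasi-likelihood test and Benjamini-Hochberg adjustment over 17725 genes (called at an adjusted p under 0.05). Of 42 member tests 28 were called. Brain and neural tube together against face, heart, lung and gut called 55.6% of all genes and 5 of the 7 members, all higher. Ina was higher by 5.76 on the log2 scale (SE 0.32, adjusted p = 9.1e-14), Nefm by 2.33 (SE 0.37, adjusted p = 7.2e-06), Nes by 2.27 (SE 0.09, adjusted p = 2e-16), Nefl by 1.85 (SE 0.18, adjusted p = 3.6e-09) and Vim by 0.76 (SE 0.12, adjusted p = 3.8e-06). Prph differed by 0.09 (95% interval -1.90 to 2.08) and Nefh by 0.29 (-0.13 to 0.71), and neither was called.

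Neural tube against forebrain called 16.1% of genes, with 4 members higher in neural tube and 1 lower. Prph was higher by 9.15 (SE 1.02, adjusted p = 4.6e-07), a value that rests on 3 reads in the forebrains, Nefl by 4.65 (SE 0.46), Nefm by 3.94 (SE 0.90) and Nefh by 2.62 (SE 0.44), while Nes was lower by -0.85 (SE 0.20, adjusted p = 0.0042). Ina differed by 0.95 (95% interval -0.21 to 2.11) and was not called. Forebrain against midbrain called 5.87% of genes and 4 members, all lower in forebrain: Prph by -7.21, Nefl by -3.89, Nefm by -3.08 and Nefh by -2.08. Neural tube against midbrain called 15.7% of genes, with Prph higher (1.94, SE 0.62, adjusted p = 0.033) and Nes lower (-1.29, SE 0.21, adjusted p = 6.9e-05). The Prph call was lost in 3 of 8 alternatives: with the lungs E5420-07 and E5420-09 (1.94, adjusted p = 0.053) and in the homozygous libraries with and without the heart A21 (1.55, adjusted p = 0.597 with it and 0.110 without it). In all homozygous libraries, neural tube minus forebrain was 5.32 for Prph (adjusted p = 0.051) and 4.07 for Nefm (adjusted p = 0.063). Forebrain minus midbrain was -3.77 for Prph (adjusted p = 0.367) and -3.06 for Nefm (adjusted p = 0.346) there, and none of these 4 was called. The forebrains and neural tubes come only from B8, the midbrains and guts only from B4 and the lungs only from B2, so tissue and line cannot be told apart where neural tube or forebrain is set against midbrain, or gut against lung. Of the tissues outside the central nervous system, gut alone shares a line, B4, with them.

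Outside the central nervous system, face against heart called 69.1% of genes and all 7 members. Ina (6.33), Prph (4.19), Nefm (3.93), Nefl (3.42) and Nes (0.69) were higher in face, and Vim (-1.12) and Nefh (-0.90) were lower, all as log2 differences. Over the alternatives Ina ran from 4.13 to 9.03, Nefm from 3.91 to 5.61 and Prph from 3.48 to 5.28, with the lowest Ina and Prph in all homozygous libraries, A21 included, and the highest of each in those without A21. Gut against lung called 41% of genes and 5 members, all higher in gut: Nefm by 3.00, Ina by 2.20, Nefh by 2.02, Prph by 1.89 and Nefl by 1.01. This direction did not carry over to the homozygous libraries for 3 of them, where gut minus lung was -0.85 for Ina, -0.55 for Nefl and -0.48 for Prph, none called, and Nefm there was 1.31 (adjusted p = 0.279).

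The make-up of the neuronal set differed between tissues. As a share of the summed TPM of Prph, Nefl, Nefm, Nefh and Ina in a library, Ina took 65.6 to 71.1% in the wild-type forebrains, 36.7 to 42.7% in the midbrains, 16.7 to 17.9% in the neural tubes and 12.1 to 18% in the faces. Nefm took the most in gut (59.5 to 69.3%), in face (35.8 to 53.4%) and in neural tube (45.5 to 47.7%). Nefl took the most in lung (55.3 to 57.4%). Prph held 5.84 to 15.3% in the faces and 5.45 to 6.76% in the neural tubes but 1.83 to 2.40% in the midbrains and 0.0584 to 0.0815% in the forebrains. The ratio of Nefm to Nefl in TPM was 2.43 to 2.81 in wild-type forebrain, 1.54 to 1.59 in neural tube and 0.549 to 0.624 in lung, and ran from 0.273 to 2.94 over all 64 libraries. The summed neuronal TPM relative to Vim TPM was 0.553 to 0.591 in the wild-type neural tubes, 0.278 to 0.288 in the midbrains and 0.0400 to 0.0674 in the forebrains, and the ratio of Nes to Vim TPM was 0.101 to 0.112, 0.166 to 0.180 and 0.124 to 0.147 in the same order.

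**Figure D2:**
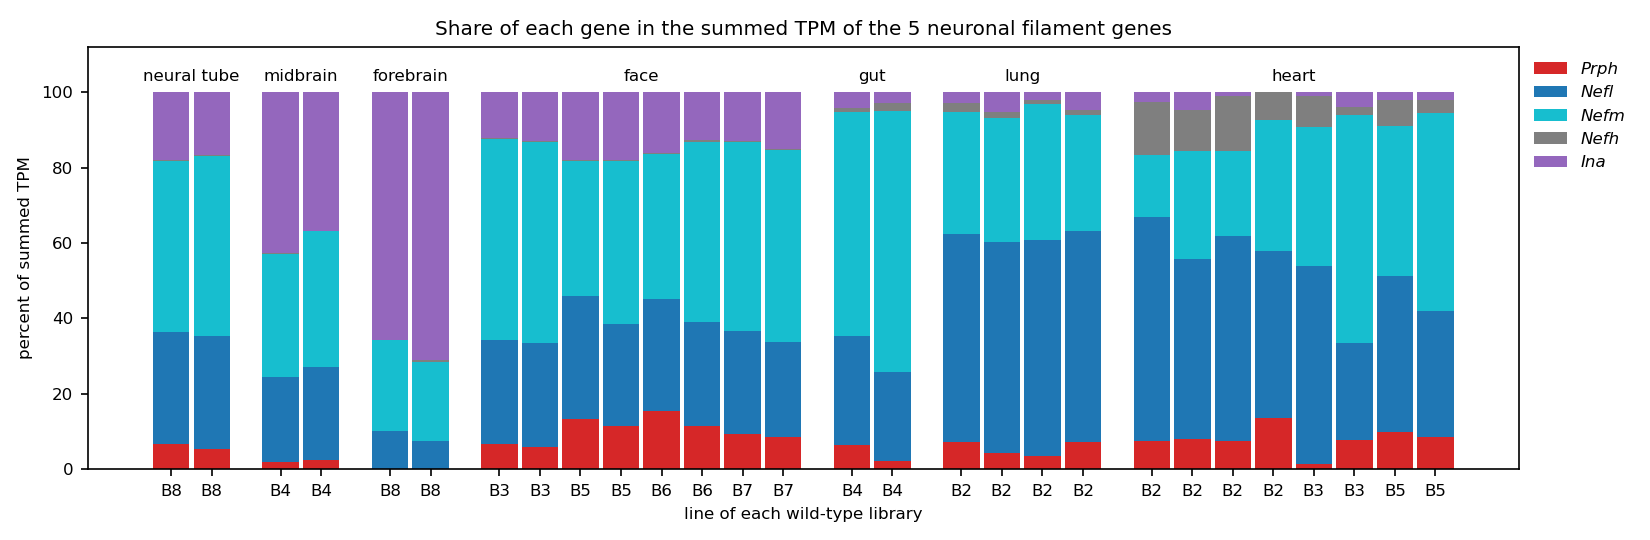
Each bar is 1 wild-type library, ordered by tissue and labelled with its line, and its segments are the percent of summed TPM held by Prph, Nefl, Nefm, Nefh and Ina. Ina takes over 65% in both forebrains, Nefl over 55% in the 4 lungs and Prph is visible in the faces, where it reaches 15.3%.

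The genes whose pattern was most like each member were ranked by Pearson's r of log2(CPM + 1) over the 64 libraries, among 12708 genes with 10 CPM or more in a library. These are descriptions: the libraries share tissues, lines and depth, and most of each r is the difference between tissues. Prph was most like Tlx3 (r = 0.963), a transcription factor of sensory and dorsal horn neurons, Ppp1r1c (0.951) and P2rx3 (0.951), an ATP-gated channel of sensory neurons. Nefl was most like Pou4f1 (0.962), a factor of sensory neurons, Nefm (0.961) and Tlx3 (0.941), and Nefm was most like Nefl (0.961), Ebf2 (0.952) and Pax7 (0.946). Ina was most like the general neuronal genes Stmn3 (0.991), Elavl3 (0.990) and Nhlh2 (0.989). Nes was most like Fam181a (0.952), Barhl2 (0.947) and Fgfr3 (0.945), and Vim most like Ddr1 (0.973), Ppp1r1a (0.939) and Atp6v0e2 (0.934). Nefh was not ranked because it never reached 10 CPM. Between members, r was 0.901 for Prph with Nefl, 0.751 for Prph with Ina, 0.913 for Nefm with Ina and 0.234 for Nes with Vim.

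**Figure D3:**
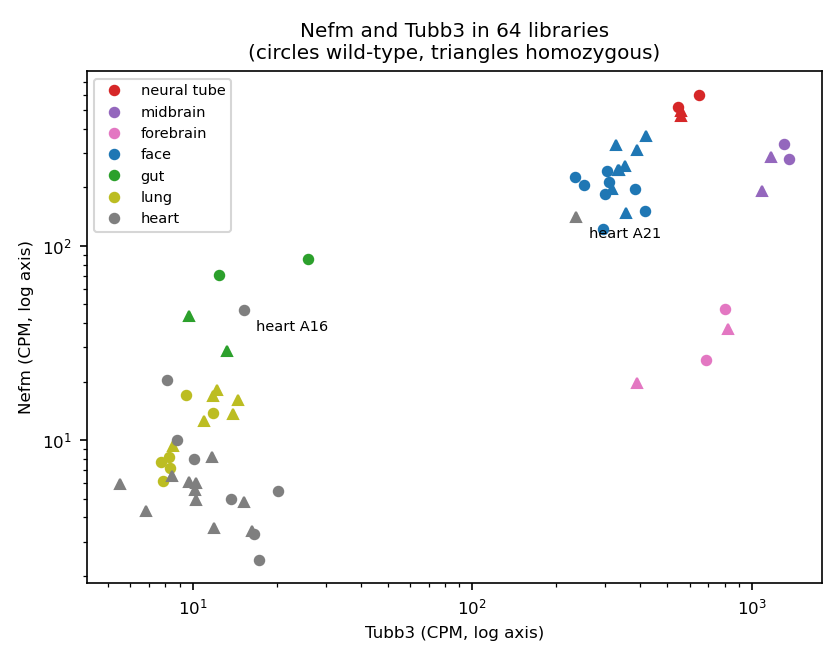
Nefm against Tubb3, a tubulin of neurons, in CPM on log axes for 64 libraries, coloured by tissue, with circles for wild-type and triangles for homozygous libraries. The heart A21 (Tubb3 236 CPM, Nefm 141 CPM) lies beside the faces, and the forebrains have Tubb3 of 389 to 826 CPM but at most 47.3 CPM of Nefm.

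In the B8 neural tube, whose comparison chose Prph, Prph was 38 and 33.9 CPM in the wild-type libraries and 11.9 and 8.71 CPM in the homozygous libraries. The homozygous level was 10.3 ± 2.26 CPM (SD, n = 2) against 35.95 ± 2.97 CPM, a log2 fold change of -1.80 (SE 0.17). Read counts were 785 and 753 in wild-type and 297 and 180 in homozygous libraries. Both homozygous libraries lay far below both wild-type ones. Over all 15165 genes tested edgeR called 0.0132% and DESeq2 0.198%, and because this comparison chose Prph no call of a member is read from it.

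The other members lay lower with it in the B8 neural tube, by much less. Nefh was 3.34 and 3.33 CPM in wild-type and 1.68 and 2.18 CPM in homozygous libraries (log2 -0.80, SE 0.32). Ina was 198 and 203 CPM against 152 and 156 CPM (-0.39, SE 0.09). Nefm was 520 and 601 CPM against 465 and 497 CPM (-0.23), Nefl was 343 and 383 CPM against 323 and 341 CPM (-0.13), and Vim was 956 and 975 CPM against 850 and 878 CPM (-0.17). These 5 and Prph had both homozygous libraries below both wild-type ones, as had 21.3% of the genes tested, and nothing is read from that count. Nes overlapped between the groups (433 and 403 CPM against 338 and 417 CPM).

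Other genes of the axon lay lower beside Prph in these libraries. Of 18 axon cytoskeleton genes 0 had a positive log2 fold change and their median was -0.28, against -0.0025 for all genes tested. The value was -0.79 for Mapt, which encodes tau, in this list and -0.86 and -1.71 for the sensory neuron genes Sncg and Runx3. Other list genes that DESeq2 called here were Lbx1 (-1.04), Col1a2 (-0.87) and, in the other direction, the Hox gene Hoxd9 (1.41). Hoxd9 had a mean of 7.37 CPM in wild-type and 19.7 CPM in homozygous libraries. Pou4f1 was 43.2 and 43.3 CPM in wild-type and 45.8 and 43.6 CPM in homozygous libraries, and Isl1 of sensory and motor neurons 38.1 and 37.0 CPM against 40.8 and 31.4 CPM. The summed motor neuron genes ran from 94.95 to 100.4 CPM in wild-type and 86.3 to 116 CPM in homozygous libraries, the summed sensory neuron genes from 361 to 367 CPM against 314 to 351 CPM and the summed mesenchyme genes from 2636 to 3380 CPM against 1881 to 2243 CPM. Both homozygous neural tubes had Xist of 124 to 141 CPM and no more than 0.241 CPM of Y-linked genes, and 1 of the 2 wild-type ones had 130 CPM of Y-linked genes. The part of sex, of position along the body axis and of these cell types in the Prph value was not tested.

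In the B7 face, whose comparison chose Nefl and Nefm, both were higher without overlap. Nefl was 118 and 93.0 CPM in wild-type and 175 and 183 CPM in homozygous faces (log2 0.76, SE 0.12). Nefm was 214 and 185 CPM against 311 and 329 CPM (0.67, SE 0.10). Ina, chosen by neither, was 53.3 and 53.0 CPM against 94.9 and 75.4 CPM (0.67, SE 0.12), and it shares these 4 libraries with the values that chose the others. These 3 did not overlap, as 21.7% of the genes tested did not in that direction. Over all genes edgeR called 0.0329% and DESeq2 0.65%, and because this comparison chose Nefl and Nefm nothing is read from the members' counts.

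Peripherin did not share this pattern. Prph was 20.1 and 15.1 CPM in wild-type and 8.23 and 17.6 CPM in homozygous B7 faces, with overlap (log2 -0.45). Vim was 648 and 630 CPM against 678 and 624 CPM, and Nes 180 and 219 CPM against 325 and 201 CPM. Beside the members, Tbx20, a factor of cranial motor neurons, and the embryonic globin Hbb-bh1 were higher (log2 3.4 and 1.12). Of 10 motor neuron genes tested 8 had a positive fold change with a median of 1.38, of 19 pan-neuronal genes 16 (median 0.23), and of 15 mesenchyme genes 2 (median -0.30), against a median of 0.00215 for all genes. Trunk Hox genes summed to 5.75 to 19.7 CPM in wild-type and 12.6 to 43.9 CPM in homozygous faces. The part of these cell types in the neurofilament values was not tested.

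**Figure D4:**
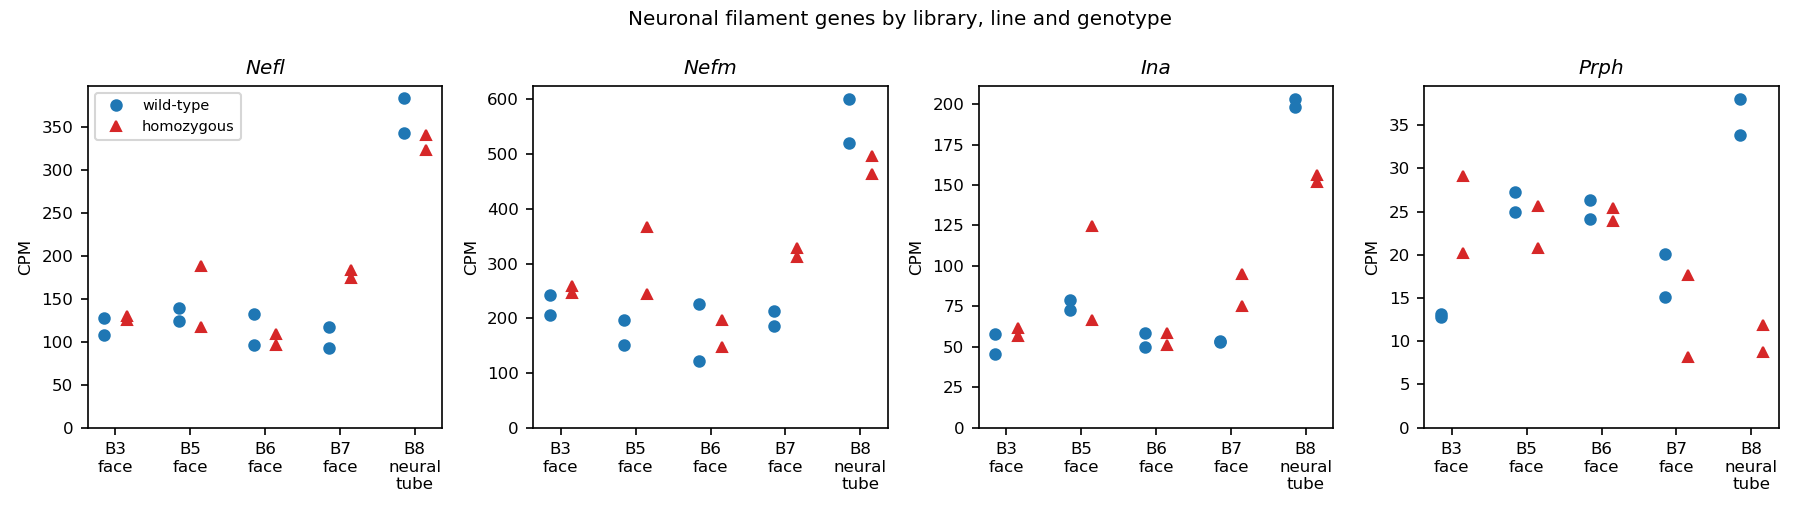
CPM of Nefl, Nefm, Ina and Prph in each wild-type (circle) and homozygous (triangle) library of the B3, B5, B6 and B7 faces and the B8 neural tubes, from 0. Both homozygous B8 neural tubes lie at or under 11.9 CPM of Prph, and the 2 wild-type B3 faces, at 12.8 and 13.2 CPM, lie below the other wild-type faces.

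The remaining 10 comparisons within a line and tissue were tested. In these, edgeR called 0 of 66 member tests, with 13 at an unadjusted p under 0.05, and DESeq2 called 5 of 64. The 7 comparisons in which edgeR called 0 genes had 113 to 1406 genes at an unadjusted p under 0.05 and 10 to 94 called by DESeq2. B3 face, B4 midbrain and B6 face had 1445, 1070 and 1316 genes at an unadjusted p under 0.05. DESeq2 called 15, 25 and 164 genes in them. Each of the 10 comparisons tested 14346 to 15357 genes by edgeR. A p that misses the threshold does not show that levels were equal, and with 2 libraries a group the intervals were wide. The shares of all genes called by edgeR were 0 in B2 heart, B2 lung, B3 heart, B4 gut, B5 face, B5 heart and B8 forebrain, 0.0131% in B3 face, 0.00677% in B4 midbrain and 0.0723% in B6 face.

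**Figure D5:**
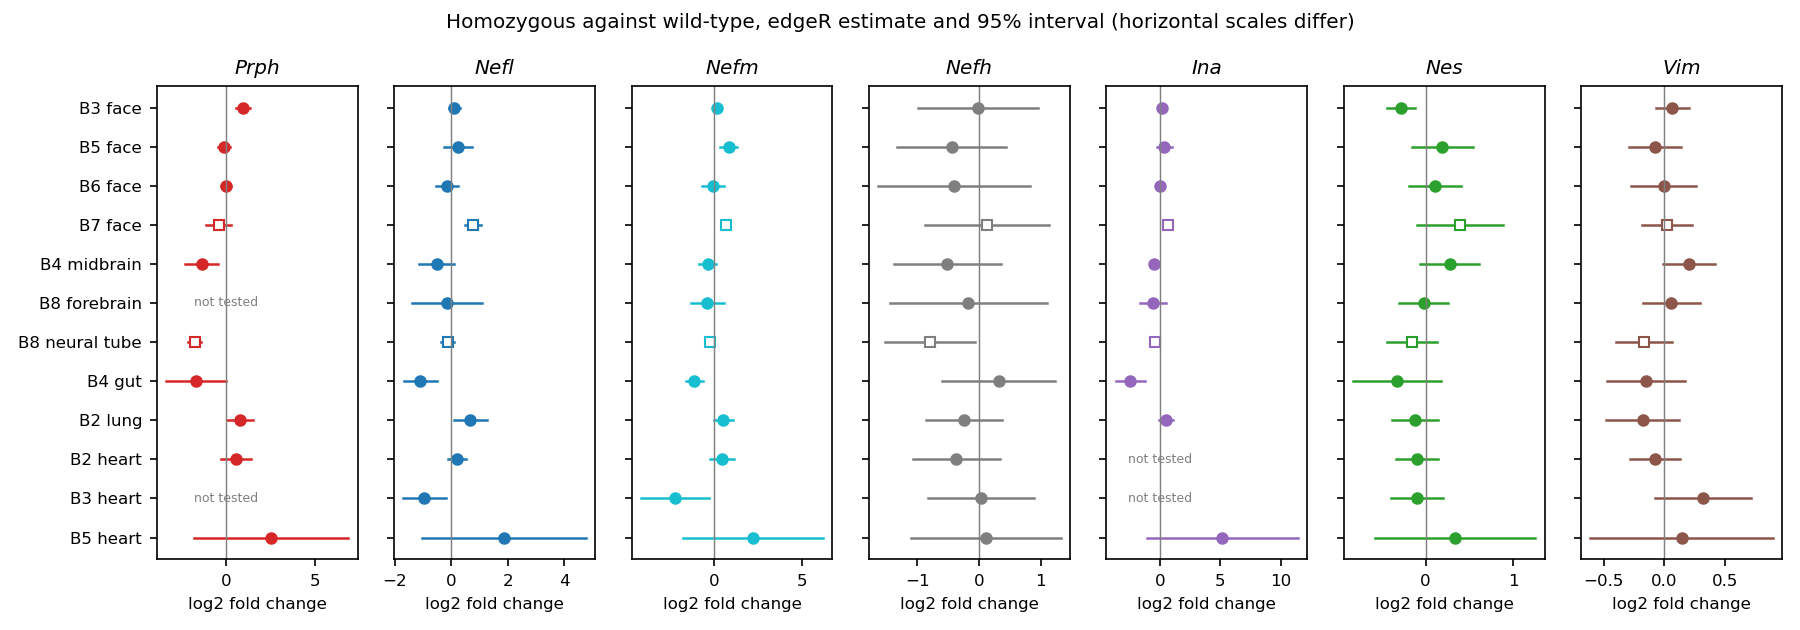
Log2 fold change of homozygous against wild-type libraries with its 95% interval from edgeR, for 7 genes (panels, each with its own horizontal scale) in 12 comparisons. Open squares are the 2 comparisons that chose members, and the widest intervals are those of the B5 heart, where Ina runs from -1.11 to 11.44.

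In the B4 gut Nefm, Nefl and Ina were lower in homozygous embryos. Nefm was 85.2 and 70.4 CPM in wild-type and 43.7 and 28.6 CPM in homozygous guts, a log2 fold change of -1.11 (SE 0.20, edgeR adjusted p = 0.230, DESeq2 adjusted p = 0.00015). Nefl was 42.2 and 24.2 CPM against 16.6 and 14.3 CPM (-1.10, SE 0.25, edgeR adjusted p = 0.342, DESeq2 adjusted p = 0.0072). Ina was 5.75 and 2.70 CPM against 0.505 and 1.02 CPM (-2.49, SE 0.52, edgeR adjusted p = 0.295, DESeq2 adjusted p = 0.0083).

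These 3 genes did not overlap between genotypes of the B4 gut, as 18.7% of genes tested did not in that direction, and DESeq2 called 0.596% of genes. Prph was 4.5 and 1.05 CPM in wild-type and 0.505 and 1.17 CPM in homozygous guts, and Nes, Vim and Nefh also overlapped. Other lists lay lower with them: 2 of 17 pan-neuronal genes (median log2 fold change -0.54), 2 of 18 axon cytoskeleton genes (-0.34), 1 of 9 neural crest glia genes (-0.51) and 0 of 10 skeletal muscle genes (-1.77) had a positive fold change, against a median of 0.0071 for all genes. The wild-type gut A42 had the highest Tubb3 (25.8 CPM, other guts 9.73 to 13.3 CPM) and Stmn2 (17.1 CPM, others 2.11 to 4.27 CPM). Other defining genes of this comparison were Elavl3 (4.55 and 1.69 CPM in wild-type, 1.05 and 2.19 CPM in homozygous guts), Sox10 (12.4 and 9.32 CPM, 7.03 and 7.43 CPM), Isl1 (21.2 and 16 CPM, 18 and 10.8 CPM) and Sox2 (10.4 and 5.94 CPM, 5.77 and 5.85 CPM), with Pou4f1 at no more than 0.526 CPM. Without A42 the log2 fold change was -0.97 for Nefm, -0.65 for Nefl and -1.85 for Ina. Both wild-type guts had Y-linked transcripts (138 to 161 CPM) and 1 of the 2 homozygous guts did not, and the part of sex, of muscle and of glia was not tested.

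In the B4 midbrain the neuronal genes lay lower and the progenitor genes higher in homozygous libraries, and none was called. Prph was 7.69 and 10.9 CPM in wild-type and 4.74 and 2.25 CPM in homozygous midbrains (log2 -1.41, SE 0.38, edgeR adjusted p = 0.668). Nefl was 196 and 232 CPM against 186 and 109 CPM (-0.53, SE 0.24, edgeR adjusted p = 0.671) and Nefh was 1.95 and 2.61 CPM against 1.85 and 1.33 CPM (-0.51, SE 0.35, edgeR adjusted p = 0.721). Nefm overlapped (278 and 333 CPM against 285 and 192 CPM). Ina was 352 and 329 CPM against 288 and 203 CPM, and Ina, Prph, Nefl and Nefh did not overlap, as 22.1% of all genes tested did not in that direction.

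Nes and Vim also did not overlap in the B4 midbrain, in the other direction, as 19.1% of genes did not. Nes was 951 and 1083 CPM in wild-type and 1085 and 1353 CPM in homozygous midbrains. Vim was 1361 and 1436 CPM against 1551 and 1642 CPM. Of 19 pan-neuronal genes 0 had a positive fold change (median -0.36), and DESeq2 called Cntn2 and Ncam1, adhesion proteins of axons, among them. All 10 erythroid genes had a positive fold change (median 0.54). The homozygous midbrain A39 was the lowest in Prph, Nefl, Nefm, Nefh and Ina and the highest in Nes and Vim, and without A39 the value was -0.97 for Prph, -0.20 for Nefl and -0.30 for Nefh. A39 also had a forebrain gene sum of 435 CPM (other midbrains 118 to 136 CPM). Its midbrain gene sum was 225 CPM (others 343 to 481 CPM). The part of forebrain tissue in these values was not tested. Both wild-type midbrains had Y-linked transcripts and 1 of the 2 homozygous ones did not.

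In the B3 face Prph was 12.8 and 13.2 CPM in wild-type and 20.2 and 29.1 CPM in homozygous libraries. The log2 fold change was 0.92 (SE 0.17, edgeR adjusted p = 0.503, DESeq2 adjusted p = 0.0046), and DESeq2 called 0.0985% of genes there. The groups did not overlap, as 22.3% of the genes tested did not in that direction, and the 2 wild-type B3 faces were the lowest in Prph of the 8 wild-type faces, whose other 6 ran from 15.1 to 27.3 CPM. Nefl (108 and 128 CPM in wild-type, 126 and 130 CPM in homozygous faces) and Ina (45.3 and 57.7 CPM, 61.8 and 56.5 CPM) overlapped, as did Nefh. Nes was 197 and 208 CPM in wild-type and 172 and 163 CPM in homozygous faces (log2 -0.28, SE 0.07, edgeR adjusted p = 0.503), without overlap, as 20.3% of genes in that direction. Nefm (206 and 243 CPM, 245 and 259 CPM) and Vim (638 and 624 CPM, 659 and 669 CPM) did not overlap either and lay higher by 0.16 and 0.07. Of 16 sensory neuron genes tested 13 had a positive fold change (median 0.31) and of 10 endothelial genes 0 (median -0.32). Both wild-type faces had Xist of 202 to 224 CPM, and 1 of the 2 homozygous ones had 125 CPM of Y-linked transcripts.

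In the B5 face Nefm was 150 and 196 CPM in wild-type and 368 and 245 CPM in homozygous libraries. The log2 fold change was 0.85 (SE 0.21, edgeR adjusted p = 0.999, DESeq2 adjusted p = 0.0055), and DESeq2 called 0.104% of genes. Without the homozygous face A17 it was 0.53. The groups did not overlap, as 12.3% of genes did not in that direction. Nefl was 139 and 124 CPM in wild-type and 189 and 117 CPM in homozygous faces, with overlap. The ratio of Nefm to Nefl in TPM was 1.10 and 1.60 in the wild-type and 1.98 and 2.122 in the homozygous B5 faces, without overlap, while over the faces of all 4 lines it ran from 1.10 to 2.02 in wild-type and from 1.56 to 2.122 in homozygous libraries. Nefh (1.65 and 1.21 CPM against 1.19 and 0.847 CPM) and Vim (766 and 776 CPM against 725 and 703 CPM) lay lower without overlap, as 21.4% of genes did, with log2 values of -0.44 and -0.08. Ina (72.8 and 79.0 CPM against 125 and 66.5 CPM), Nes and Prph overlapped. In this comparison the defining genes Tubb3 (414 and 382 CPM in wild-type, 418 and 333 CPM in homozygous faces), Stmn2 (125 and 104 CPM, 133 and 98.9 CPM), Elavl3 (81.8 and 78.4 CPM, 90.6 and 79.8 CPM), Sox2, Sox10, Isl1 and Pou4f1 overlapped between genotypes.

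The B6 faces held no member that separated the genotypes. Nefm was 122 and 226 CPM in wild-type and 197 and 148 CPM in homozygous faces, and all 7 members overlapped. The intervals of the log2 fold change were -0.34 to 0.24 for Prph, -0.54 to 0.22 for Nefl and -0.30 to 0.30 for Ina. Between wild-type faces of B3, B5 and B6, edgeR called 0 members and 0.0193% of genes for a difference among lines. Prph came closest (adjusted p = 0.134), with 3 members at an unadjusted p under 0.05, and DESeq2's likelihood-ratio test called 229 genes, Prph and Nes (adjusted p = 1.4e-06 and 0.0066) among them.

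In the B8 forebrain the labels' genotypes gave no called member among the 6 tested (0 at an unadjusted p under 0.05, 0 by DESeq2). Ina was 124 and 85.2 CPM in libraries labelled wild-type and 37.5 and 102 CPM in those labelled homozygous (log2 -0.60, 95% interval -1.69 to 0.50). Nefm was 47.3 and 25.9 CPM against 19.7 and 37.4 CPM, and Nefl 19.7 and 9.37 CPM against 7.53 and 18.8 CPM. In Nefl, Nefm, Nefh and Ina the 2 libraries of a label differed more from each other than the label means did, and Vim (1372 and 1453 CPM against 1484 and 1471 CPM) did not overlap, as 18.4% of genes did not in that direction. The library A29 was lowest in Nefl, Nefm, Nefh and Ina, in Tubb3 (389 CPM, others 688 to 826 CPM), in Stmn2 (46.3 CPM, others 97.2 to 141 CPM) and in Elavl3 (68.5 CPM, others 100 to 148 CPM). Sox2 was 278 and 284 CPM against 273 and 253 CPM, Isl1 19 and 11.3 CPM against 5.53 and 16.3 CPM, and Sox10 and Pou4f1 were at most 2.13 CPM. Prph was at 1 to 7 reads a library, too few to test.

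In the B2 lung, the one comparison with 6 libraries a genotype, Nefl ranged from 8.68 to 27.7 CPM in wild-type (median 11.8) and from 16.7 to 27.6 CPM in homozygous lungs (median 22.9). The means were 13.9 ± 7.00 and 22.4 ± 4.79 CPM (SD, n = 6), and the log2 fold change was 0.67 (95% interval 0.08 to 1.25, edgeR adjusted p = 0.890). All but 1 of the 6 wild-type lungs lay at or under 14 CPM, and the sixth, E5406-03, was the highest of all 12 by a narrow margin. Nefm ran from 6.18 to 17.1 CPM (median 7.96) against 9.30 to 18 CPM (median 14.9), with a log2 fold change of 0.54 (-0.01 to 1.10). Prph was at most 2.04 CPM in any lung. Without E5420-07 and E5420-09 the value was 0.48 for Nefl, 0.61 for Nefm and 0.68 for Prph. With the code that opens the lung labels (E5403, E5406 or E5420, meaning not given) in the model, the values were 0.59, 0.49 and 0.54. Beside them, 11 of 12 autonomic neuron genes had a positive fold change (median 0.37). Tubb3 ran from 7.71 to 11.9 CPM against 8.50 to 14.5 CPM, Stmn2 from 0.634 to 4.82 CPM against 1.04 to 2.25 CPM, Sox10 from 8.18 to 18.1 CPM against 9.21 to 14.7 CPM, Isl1 from 9.19 to 23.9 CPM against 10.4 to 28.2 CPM, and Elavl3 and Pou4f1 were under 3 CPM in every lung.

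In hearts the neuronal filament genes Nefl, Nefm, Prph and Ina were low except in A21 and A16. Over the 18 hearts without A21 and A16, Nefl was 6.20 to 13.3 CPM, Nefm 2.41 to 20.4 CPM, Prph 0.143 to 1.65 CPM and Ina 0 to 0.797 CPM. A21 had 79.5, 141, 16.3 and 46.4 CPM of these genes and A16 had 20.04, 46.8, 3.00 and 2.86 CPM. In A21 Tubb3 was 236 CPM (18 hearts 5.51 to 20.2 CPM), Stmn2 72.3 CPM (at most 8.49 CPM), Sox2 52.3 CPM (at most 5.22 CPM) and Pou4f1 10.5 CPM (at most 0.423 CPM). In A16 Tubb3 (15.25 CPM), Stmn2 (7.55 CPM) and Pou4f1 (0.422 CPM) lay within the 18 hearts and Sox2 (8.45 CPM) above them. The summed pan-neuronal genes were 503 CPM in A21, 176 CPM in A16 and 169 to 331 CPM in the 18.

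The B5 heart comparison turned direction without A21. With it the log2 fold change was 5.16 for Ina, 2.52 for Prph, 2.24 for Nefm and 1.85 for Nefl, none called. Without it only the homozygous heart A22 was set against the wild-type hearts A23 and A24, and the values were -2.66, -2.30, -1.84 and -0.76. These controls also differed from A22 in genes of other tissues. The summed gut genes were 37.2 CPM in A23 and 95 CPM in A24, against 2.99 CPM in A22. The summed lung genes were 126, 285 and 88.6 CPM in the same order. The part of other tissue in the reversed values was not tested. In the B3 heart Nefm was 8.01 and 46.8 CPM in wild-type and 5.98 and 6.00 CPM in homozygous libraries (-2.20, SE 0.79, edgeR adjusted p = 0.524), and without A16 the value was -0.42. Nefl was 11.5 and 20.04 CPM against 8.81 and 7.52 CPM (-0.96, SE 0.30, edgeR adjusted p = 0.524), and -0.50 without A16. Neither overlapped, as 21.5% of genes in that direction. Vim was 1208 and 961 CPM against 1394 and 1320 CPM (0.32, and 0.16 without A16), higher without overlap as 24.2% of genes were. The defining genes Sox10 (0.620 and 13.1 CPM in wild-type, 0.157 and 1.97 CPM in homozygous B3 hearts) and Isl1 (13 and 24.1 CPM, 1.84 and 8.12 CPM) were highest in A16.

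The B2 hearts, with 4 libraries a genotype and neither doubted library, showed Nefl at 7.02 to 8.81 CPM in wild-type and 7.68 to 9.74 CPM in homozygous hearts (log2 0.20, 95% interval -0.11 to 0.51). Nefm was 2.41 to 5.45 CPM against 3.4 to 8.17 CPM and Vim 1685 to 1884 CPM against 1378 to 1956 CPM. All 7 members overlapped. Tubb3 ran from 13.8 to 20.2 CPM against 10.2 to 16.4 CPM, Stmn2 from 4.30 to 8.49 CPM against 2.13 to 5.93 CPM, and Isl1 from 3.36 to 13.5 CPM against 2.08 to 10.2 CPM, while Elavl3, Sox2 and Pou4f1 were at most 1.32 CPM and Sox10 at most 4.19 CPM.

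The homozygous hearts of B6 and B7 share the same 8 wild-type hearts as controls, and line and genotype cannot be told apart there. Called by edgeR were 0 members and 0 of all genes in B6 (2613 genes at an unadjusted p under 0.05) and again 0 in B7 (1492 genes), while DESeq2 called 685 and 97 genes and 0 members. Nefl was 8.0 and 6.20 CPM in the B6 hearts, 9.09 and 7.65 CPM in the B7 hearts and 7.02 to 20.04 CPM in the controls. Prph was 0.242 and 0.160 CPM in the B6 hearts and Nefh 1.38 and 0.964 CPM in the B7 hearts, both overlapping the controls, and Nes in the B7 hearts (153 and 149 CPM) lay above all 8 (100.3 to 147 CPM), as 7.07% of genes did. Lines differed in hearts even among wild-type libraries: edgeR called 53.2% of genes for a difference among B2, B3 and B5, Nefl (adjusted p = 0.019), Nefm (adjusted p = 0.0080) and Vim (adjusted p = 0.00016) among them. Vim was 1685 to 1884 CPM in B2, 1208 and 961 CPM in B3 and 1210 and 1140 CPM in B5 wild-type hearts. Without A16, Nefm, Vim and Prph (adjusted p = 0.0042, 0.00018 and 0.034) were called and Nefl (0.060) was not.

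Whether a genotype difference itself differed between 2 tissues of a line was tested for B2, B3, B4 and B5. By edgeR 0 of 28 member tests were called, and the shares of all genes called were 0 in B2, 0.0311% in B3, 0 in B4 and 0 in B5. DESeq2 also called 0 members, and 5 tests had an unadjusted p under 0.05 (Prph, Nefl, Nefm and Ina in B3, Ina in B4). Over all genes, edgeR had 490, 1466, 709 and 215 at an unadjusted p under 0.05 in B2, B3, B4 and B5. DESeq2 called 1, 84, 15 and 7 genes in the same order. In B4 the gut minus midbrain difference was largest for Ina at -1.99 (SE 0.57, edgeR adjusted p = 1.000). In B3 the heart minus face difference was -3.84 for Prph and -2.37 for Nefm and, without A16, -0.41 and -0.58.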

How the data were processed

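RNA from dissected tissues of mouse embryos was sequenced as paired reads, 1 library per sample. The authors mapped the reads to mm10 with STAR and estimated expected counts per gencode M4 gene with RSEM, in an ENCODE pipeline that their methods name in its single-end form; the strand setting is not given in the sources used here. The deposited tables also hold TPM, values scaled to transcript length and to the library, as RSEM gave them to the authors, and FPKM, which was not used. The submitters' processing notes also list bcl2fastq and Juicer. Chromatin contact samples of adult liver were not analysed here.

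Expected counts of the Ensembl genes were rounded to whole numbers, and CPM was computed from them here. Each comparison was fitted over all genes left by filterByExpr with TMM scaling and edgeR's quasi-likelihood test (edgeR 4.0.16, R 4.3.3), with Benjamini-Hochberg adjusted p-values over all genes tested, with 0.05 as the threshold. DESeq2 1.42.0 was an alternative, as the authors' methods name DESeq. A genotype comparison used only the libraries of its line and tissue. The wild-type tissue fit left out the lungs E5420-07 and E5420-09. Intervals are 95% confidence intervals of a log2 difference, computed from edgeR's test, and are not ranges of library values. Depth runs from 8391553 to 31793441 counts per library. The methods call replicates biological, but the labels do not say which embryo a library came from. The p-values therefore measure only the spread between these samples. Other alternatives were RLE scaling, fits that kept genes of low count, a joint fit over every library and other control hearts. Sex or the label code in the lung model, TPM without mitochondrial genes and leaving out each library were also used. The fits without A21, A16 or the 2 lungs were chosen after seeing the data where they were not planned. The fits were tested on simulated data with 200 changed genes.

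The members and the marker lists were chosen with earlier results of these data known. In the genotype comparisons, members were described with emphasis on those that separated the groups, and those with groups that did not overlap and a log2 fold change of at least 0.5 were given with their fold change and adjusted p and followed through the alternatives. Of the marker lists, up to 4 genes called by edgeR were named and, where none was called, defining genes such as Tubb3 were given as values. Genes that only DESeq2 passed (Mapt, Sncg, Runx3, Hoxd9, Lbx1, Col1a2, Cntn2, Ncam1) were named after their values were seen. One gene of the marker lists is not reported here. The likeness rule took 3 genes per member. Promoter sequences are from RefSeq (GRCm38.p6), with 4 of 7 members matched.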

Additional observations from a re-analysis of the deposited data

Results flagged for a closer look

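In groups of 4 to 10 libraries, 28 combinations of a group and a member were checked for a library far from the others of its group, and 4 were found, where chance gives about 1 in 20. The homozygous B2 heart A53 had 7.68 CPM of Nefl and the other 3 had 9.59 to 9.74 CPM. The wild-type lung E5406-03 had 27.7 CPM of Nefl and the other 5 had 8.68 to 14 CPM. The wild-type lung E5420-07 had 243 CPM of Nes, with 135 to 162 CPM in the others, and 963 CPM of Vim, with 475 to 560 CPM in the others.

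In B8, 2 members had both libraries of a label on opposite sides in the 2 tissues, and the difference between the tissues was not tested. Of all genes tested, 18.4% lay higher without overlap in forebrain and 21.3% lower without overlap in neural tube. How many did both was not counted, and nothing is read from these 2 members. The neural tube comparison also chose Prph. The mean of the libraries labelled homozygous minus that of the libraries labelled wild-type was 0.193 CPM for Prph in forebrain, where all 4 libraries were under 0.3 CPM, and -25.6 CPM in neural tube. For Vim it was 64.8 CPM in forebrain and -102 CPM in neural tube.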

How the results depend on the processing

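The count of members called in the 10 tested genotype comparisons was 0 by edgeR. It was 5 with DESeq2, 6 with no filter on low counts (Prph and Nes in B3 face, and Prph, Nefl, Nefm and Ina in B4 gut) and 1 (Ina in B5 heart) in a joint fit of all libraries, and 0 with RLE scaling. Leaving out 1 library at a time gave 0 to 5 calls: 5 in B5 heart without A22, which leaves A21 alone, 4 in B4 gut without A44, 4 in B4 midbrain without A37, 2 in B4 gut without A42, and 1 each without A11, A14, A41, A18, A20 and A31. In such fits the lone library is assumed to vary like those of the other group. For the B6 and B7 hearts, 0 members were called against all 8 control hearts, 5 with the B2 controls alone and 3 with the B5 controls alone. Among those wild-type hearts edgeR called 53.2% of all genes for a difference among lines. Of the differences between tissues of a genotype difference, 0 were called, 1 (Ina in B4) with no filter, and 0 to 4 when 1 library was left out (4 without A14 and 4 without A22). The members called for a difference among lines numbered 3 by edgeR and 5 by DESeq2. The 28 calls between wild-type tissues ranged from 21 to 30. For most of these alternatives the share of all genes called is not given, so nothing about the members is read from their counts. In homozygous libraries, gut minus lung turned direction, at -0.48 for Prph, -0.55 for Nefl and -0.85 for Ina, and without the heart A21 it was -0.50, -0.55 and -0.85; the cause was not tested. No paired analysis was possible because the labels share no replicate numbers between genotypes outside the lungs, whose label codes each hold both genotypes. With the label code as a term in the lung model 0 members were called, as without it. Low counts limit Prph in forebrain and heart, Ina in heart and Nefh in every tissue.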
